A study of Mus musculus with 6 samples.

Results

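Neuropeptide precursor genes encode the proteins from which short signalling peptides are cut. Neurons and endocrine cells carry the precursor into dense-core granules, where convertases cut it at pairs of basic residues, other enzymes trim and amidate the ends, and the finished peptide is released to act on receptors coupled to G proteins. In the gut such peptides, made by enteric neurons and by endocrine cells of the epithelium, act on motility, secretion and blood flow, and in the brain the same genes mark classes of neurons.

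The 10 precursor genes described here, Tac1, Sst, Vip, Npy, Cck, Penk, Pdyn, Cartpt, Gal and Adcyap1, were picked by symbol out of 19505 measured genes, and all 10 were represented on the array. Where a gene has several probe sets, the brightest on average stands for it. They were proposed with results of these arrays known, and their levels on each array are what the choice used, so those levels are given as a description with no test. The study set C57BL/6J mice given MBELN, exosome-like nanoparticles from mulberry bark, by mouth every day for 7 days (3 arrays, here MBELN 1 to 3) against control mice titled PBS (3 arrays, here control 1 to 3), to see which genes differ in the colon after treatment. Every array is labelled colon, from mice of that 1 strain, and no other allele or agent is named in the labels. Whether the arrays come from separate animals is not said in the labels, and p-values then reflect only how far these samples spread, which may be technical. Values are deposited log2 expression, and above background means higher than 95% of the negative-control rows on the same array.

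The label colon held for the genes of only 1 array. On control 1, 15 of 18 colon epithelium markers and 10 of 10 smooth muscle markers were above background. On control 3 none of these 28 was, while 15 of 15 neuron markers and 8 of 12 brain glia markers were. Heart markers (8 of 9) were above background on MBELN 1, skin and skeletal muscle markers (11 of 11) on MBELN 2 and liver markers (9 of 9) on MBELN 3. On control 2 none of 12 housekeeping genes was above background, and its threshold was the highest, 10.11 against 7.93 to 9.34 on the other arrays. Treatment and the tissue whose genes an array carried therefore cannot be told apart. Whether the deposited columns belong to the samples they are titled for was not tested, and control and MBELN below mean only the titles. In RNA from whole tissue, fewer cells of a type and less RNA per cell cannot be told apart either.

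The promoters of the precursor genes are shown first, because many genes of this class are known targets of CREB, a factor that answers cyclic AMP by binding the cyclic AMP response element (CRE). RefSeq starts on GRCm38.p6 gave promoter sequence for 9 of the 10 genes, all but Penk. The 120 bases just before the start are printed for Sst, Tac1, Vip and Cck, each above background on at least 1 control array, and for Cartpt, above background on none. Capitals mark the full element TGACGTCA, which reads the same on both strands, or its half-site TGACG, written CGTCA where it lies on the other strand. Each full element contains the half-site on both strands.
Sst, chr16:23890845-23890964, minus strand: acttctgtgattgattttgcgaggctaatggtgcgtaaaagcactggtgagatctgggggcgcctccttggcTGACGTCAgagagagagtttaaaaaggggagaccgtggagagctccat
Tac1, chr6:7554941-7555060, plus strand: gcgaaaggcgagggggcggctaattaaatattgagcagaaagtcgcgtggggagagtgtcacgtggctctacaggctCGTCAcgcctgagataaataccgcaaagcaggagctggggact
Vip, chr10:5639098-5639217, plus strand: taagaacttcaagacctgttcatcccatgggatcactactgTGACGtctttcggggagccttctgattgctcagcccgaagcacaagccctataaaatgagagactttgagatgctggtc
Cck, chr9:121495695-121495814, minus strand: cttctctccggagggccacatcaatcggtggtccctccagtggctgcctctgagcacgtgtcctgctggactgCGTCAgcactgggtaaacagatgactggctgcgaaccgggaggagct
Cartpt, chr13:99900684-99900803, minus strand: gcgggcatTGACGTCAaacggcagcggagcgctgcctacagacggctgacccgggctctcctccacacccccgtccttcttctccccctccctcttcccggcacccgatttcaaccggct

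In the 250 bases before the start, the full element lay in 2 of the 9 genes, Sst (48 bases before the start) and Cartpt (112 bases), against 1.55% of 32851 RefSeq promoter windows of the same length. The half-site lay in 6 of the 9, Tac1, Sst, Vip, Cck, Cartpt and Adcyap1, against 17.8% of all windows, and began 43 bases before the start in Tac1, 79 in Vip and 47 in Cck. It was not found in these windows of Npy, Pdyn and Gal. Pdyn and Adcyap1 have more than 1 window each. Counted by window, as the shares are, the full element lay in 2 of 11 and the half-site in 7 of 11. Of the genes with the full element, Sst was above background on control 3 and Cartpt on no array. A match is a string of letters in the window and shows no binding.

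Of the 10 precursor genes, 4 were above background on control 3 (20.7% of all 22206 probe sets were), 3 on control 1 (26.0%), 1 on MBELN 1 (27.7%) and none on control 2 (0.311%), MBELN 2 (14.3%) or MBELN 3 (23.1%). Their share lay farthest over that of all probe sets on control 3, and was close to it on control 1. The median of the 10 values was 8.29 on control 3 and lay between 4.67 and 5.75 on the remaining arrays. On control 3 the lowest of the genes above the threshold of 8.89 was Tac1 at 11.60, and the highest below it was Npy at 8.41. On control 1, with a threshold of 8.14, these were Vip at 9.27 and Sst at 7.30.

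**Figure D1:**
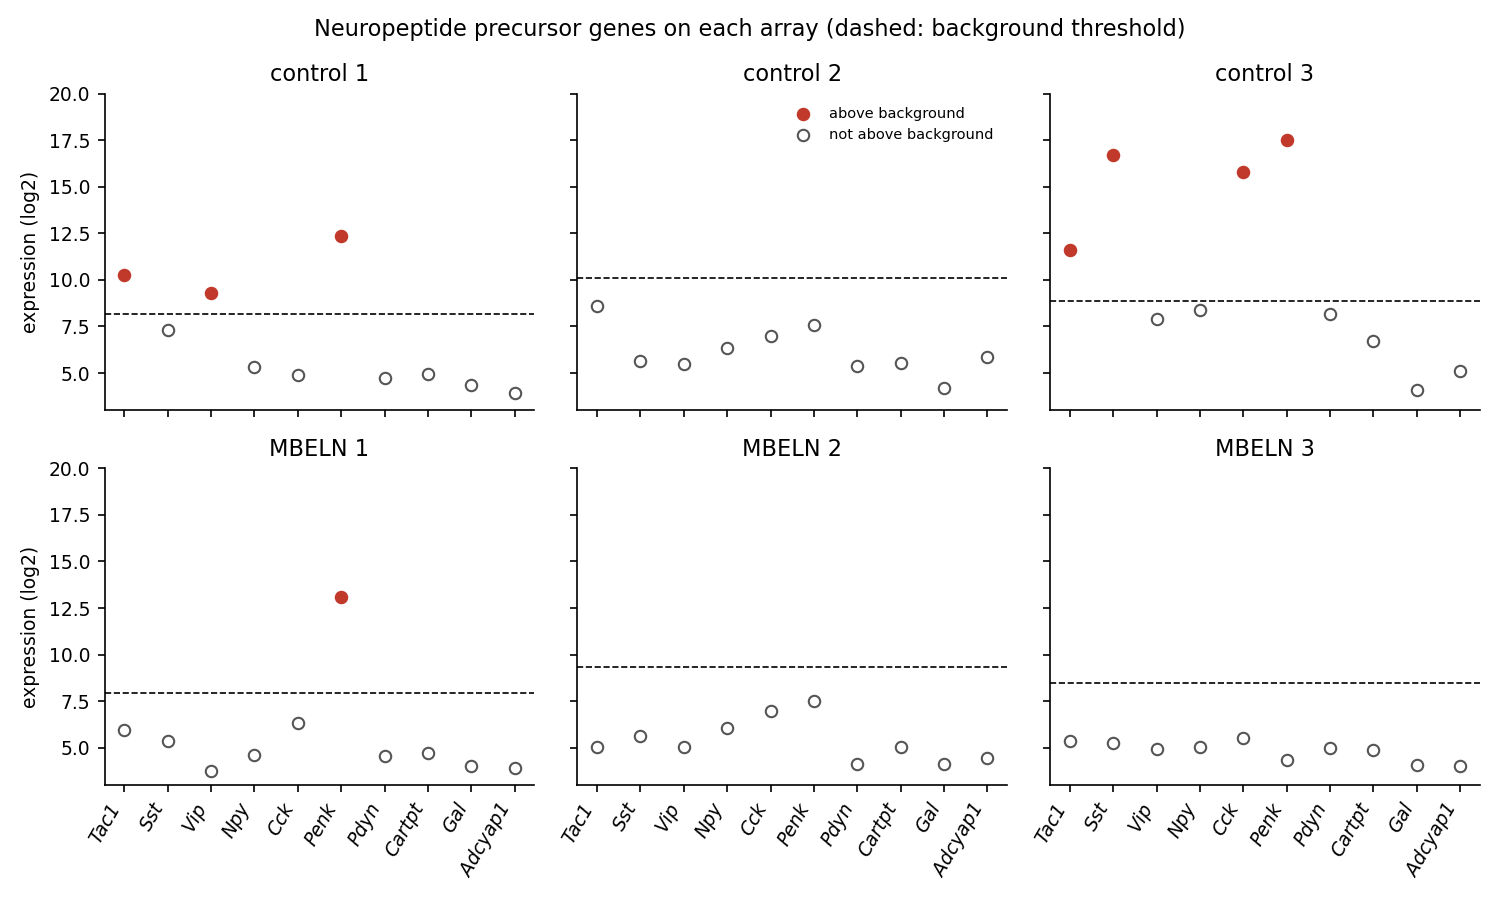
Expression (log2, vertical axis) of each neuropeptide precursor gene (horizontal axis) on each of the 6 arrays, 1 value per gene and array, with a dashed line at that array's background threshold. Filled points lie above it: Tac1, Vip and Penk on control 1, Tac1, Sst, Cck and Penk on control 3, and Penk alone on MBELN 1.

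Sst and Cck were above background on control 3 alone. Sst encodes somatostatin, which inhibits the release of other hormones and marks a class of cortical interneurons. It was at 7.30 on control 1, 5.66 on control 2 and 16.70 on control 3, and at 5.35, 5.61 and 5.26 on MBELN 1, 2 and 3. Cck encodes cholecystokinin, a hormone of the upper gut and an abundant peptide of cortical neurons. It was at 4.89, 7.00 and 15.78 on control 1 to 3 and at 6.32, 7.00 and 5.55 on MBELN 1 to 3. For both genes control 3 stood far above the other 5 arrays, among which control and MBELN values were mixed for Cck.

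Penk, the precursor of the enkephalins, opioid peptides of striatal and enteric neurons, was above background on 3 arrays that carried genes of different tissues. It was at 12.35 on control 1, 7.58 on control 2 and 17.49 on control 3, and at 13.11, 7.50 and 4.37 on MBELN 1, 2 and 3. The values on MBELN 1, which carried heart markers, and on control 1, which carried colon markers, lay close together, and the groups overlapped. Its values on control 2, MBELN 2 and MBELN 3 were under the thresholds and have no order.

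Tac1 was above background on control 1 and control 3, and Vip on control 1. With the 99th percentile of the negative controls as the threshold, neither was above background on any array. Tac1 encodes substance P and neurokinin A, excitatory peptides of enteric and sensory neurons. It was at 10.24, 8.62 and 11.60 on control 1 to 3 and at 5.93, 5.05 and 5.36 on MBELN 1 to 3, and control 2 lay under its own threshold. Vip encodes vasoactive intestinal peptide, which relaxes gut smooth muscle and stimulates secretion. It was at 9.27, 5.47 and 7.89 on control 1 to 3 and at 3.77, 5.02 and 4.96 on MBELN 1 to 3. Only the array with colon markers thus carried Vip above background.

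The other 5 genes were above background on no array. Npy, whose peptide acts on feeding and on sympathetic targets, and Pdyn, the precursor of the dynorphin opioids, came nearest on control 3, at 8.41 and 8.17, and lay at 4.14 to 6.35 elsewhere. Cartpt, the precursor of the CART peptides of hypothalamic and enteric neurons, lay between 4.74 and 6.69. Gal, the galanin precursor, lay between 4.03 and 4.37, and Adcyap1, the precursor of PACAP, between 3.94 and 5.85. Their values are bounds on expression, since they cannot be told from the negative controls.

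The array with brain genes was then set against the array with colon genes, 1 array each, which allows no test. A gene was called when the difference reached 4-fold and the higher value was above background. On control 3, 3 of 10 precursor genes were called higher (7.99% of 22206 probe sets were), namely Sst, Cck and Penk, and none was called lower (8.97%). The median difference of the 10, control 3 minus control 1, was 2.43 on the log2 scale, against -0.04 over all probe sets.

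Sst was at least 376-fold and Cck at least 199-fold higher on control 3, taking control 1 at its background threshold of 8.14. Both bounds depend on that threshold. It is higher at the 99th percentile, where Ppp1r1b, at 11.81, was not above background on control 1. Sst and Cck were still called higher on control 3 there, but with smaller bounds, which were not computed. Penk, above background on both, was 35.2-fold higher on control 3. Tac1, also above background on both, was 2.56-fold higher there. Vip went the other way and was at least 1.31-fold higher on control 1. At the 99th percentile Tac1 and Vip were below background on both arrays, and neither fold could be given. These folds rest on deposited values whose normalisation between arrays is not given in the sources used here.

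**Figure D2:**
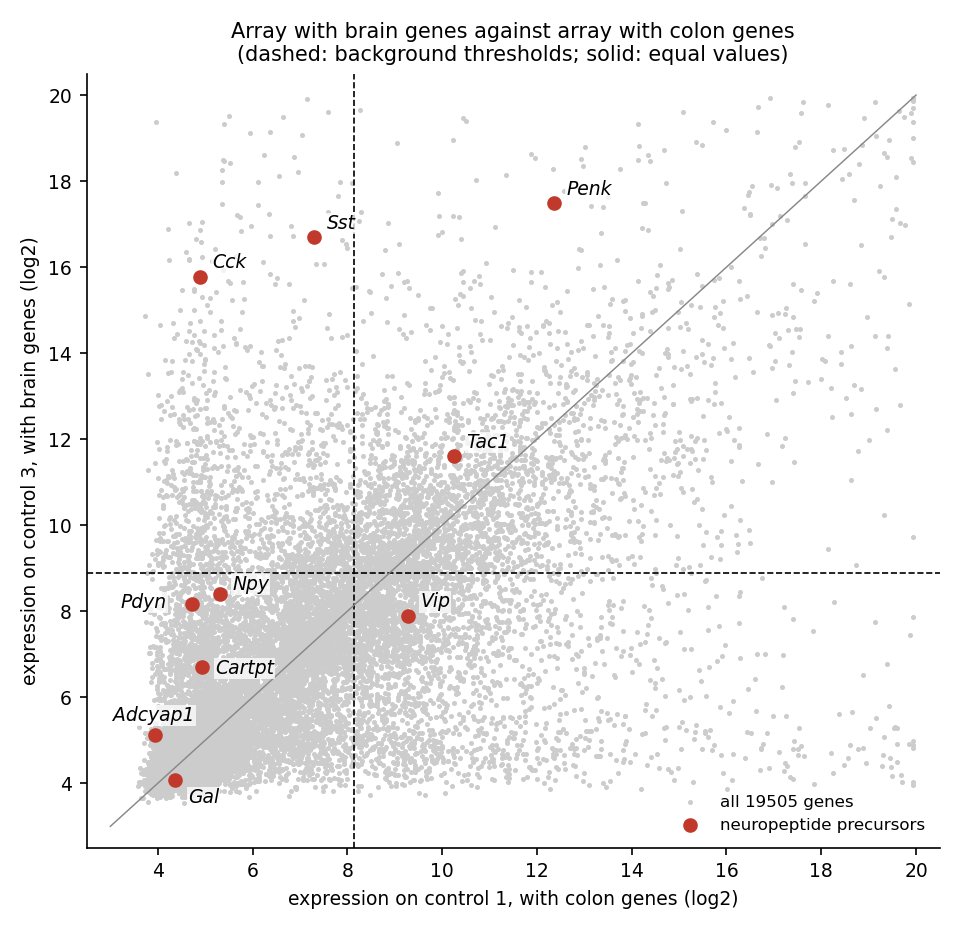
Expression on control 3 (log2, vertical axis) against control 1 (log2, horizontal axis) for 19505 genes in grey and the 10 neuropeptide precursors in red, with dashed lines at the background thresholds and a solid line of equal values. Sst and Cck lie above background on control 3 only, Penk and Tac1 on both arrays and Vip on control 1 only.

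Receptors for these peptides were mostly below background, also on the arrays that carried the precursors. Of 22 measured receptor genes, 2 were above background on control 1 (26.0% of all probe sets were), 1 on control 3 (20.7%) and none on the other arrays (0.311% to 27.7%). Tacr2, the neurokinin A receptor of gut smooth muscle, reached 8.61 on control 1 and lay between 4.19 and 5.50 elsewhere. Vipr1, a receptor for VIP and PACAP found on epithelium, was at 9.26 on control 1, 7.91 on MBELN 3 and 4.53 to 5.94 on the others. Both are receptors for products of Tac1 and Vip, and both were above background on the array with colon markers and on no other. At the 99th percentile of the negative controls neither receptor was above background on control 1, nor were Tac1 and Vip.

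On control 3 the receptor above background was Adcyap1r1, the PACAP receptor of neurons and astrocytes, at 11.70 against 5.17 to 7.34 elsewhere, although Adcyap1 itself was at 5.11 there. At the 99th percentile of the negative controls Adcyap1r1 was not above background on control 3 either. Npy1r, Oprm1 and Cckbr, receptors for NPY, opioids and cholecystokinin that were picked after their values were seen, lay just under the control 3 threshold of 8.89, at 8.82, 8.71 and 8.57. The median of the receptors was 6.75 on control 3 and between 4.61 and 5.79 elsewhere. The difference between control 3 and control 1 was above 0 for 77.3% of the receptors, against 47.2% of all probe sets. By the 4-fold rule 1 of 22, Adcyap1r1, was called higher on control 3 (7.99% of all probe sets were) and 2, Tacr2 and Vipr1, were called lower (8.97%).

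**Figure D3:**
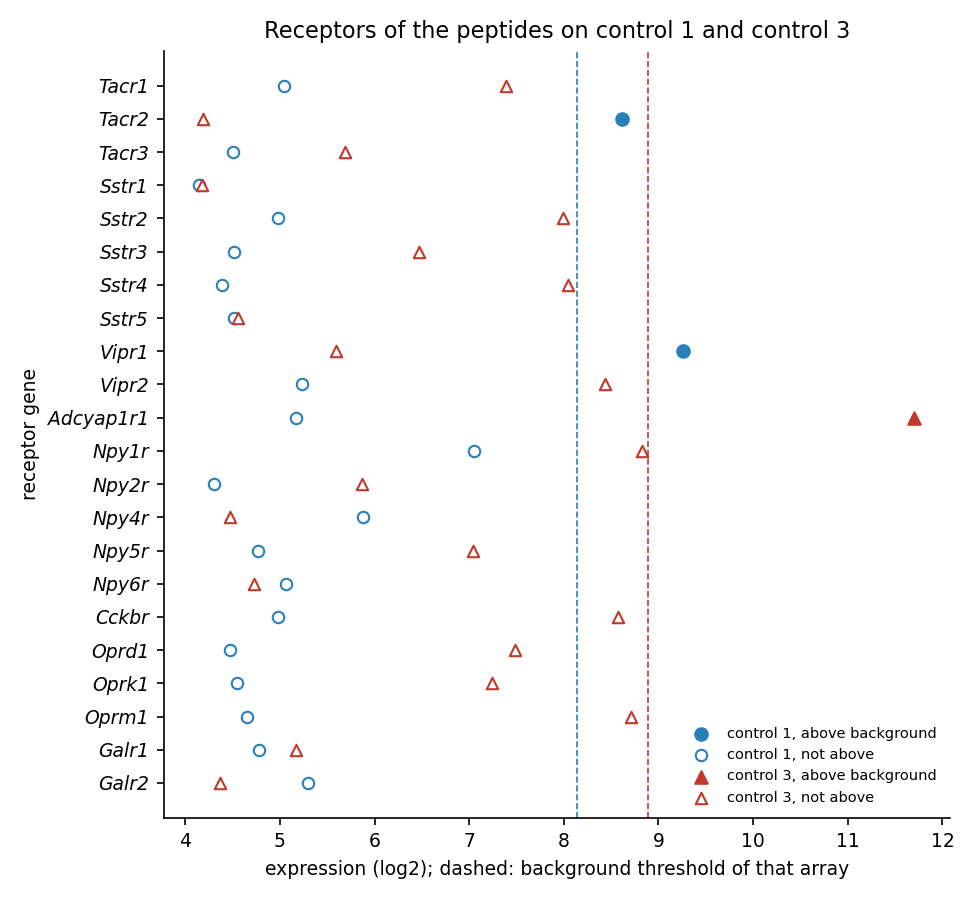
Expression (log2, horizontal axis) of 22 receptor genes (vertical axis) on control 1 (blue circles) and control 3 (red triangles), with dashed lines at each array's background threshold and filled symbols above it. Tacr2 and Vipr1 on control 1 and Adcyap1r1 on control 3 are the filled points, and several open triangles crowd just left of the control 3 line.

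Of 15 measured genes that process, store and release peptides, 11 were above background on control 3 (20.7% of all probe sets were). On control 1, 3 of the 15 were (26.0%). At the 99th percentile of the negative controls, only Scg2 and Cadps of the 15 were above background on control 3. Scg2, a granule protein that is itself cut into peptides, reached 16.45 on control 3, against 4.91 to 7.99 elsewhere. Cadps, which primes dense-core vesicles for release, was at 15.66 against 4.41 to 5.81. Scg5, a chaperone of the convertase PC2, was at 14.04 against 4.11 to 5.26. All of these were below background on every array but control 3.

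Other processing genes were shared between arrays. Cpe, the carboxypeptidase that trims basic residues, was at 13.09 on control 3, 9.49 on MBELN 1 and 12.06 on MBELN 2. Pam, which amidates peptide ends and was picked after its values were seen, was above background on every array but control 2, and was highest, at 19.78, on MBELN 1, where Penk was also above background.

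Cell markers differed between the arrays that carried these genes. On control 3, 8 of 14 central interneuron, 7 of 10 central excitatory and 5 of 8 striatal neuron markers were above background (20.7% of all probe sets were). The calcium-binding protein gene Calb2 was at 12.72 there, the glutamate transporter gene Slc17a7 at 16.20 and the phosphodiesterase gene Pde10a, abundant in striatum, at 13.71. Of the other striatal markers, Foxp1 was above background on every array but control 2, and Ppp1r1b was at 11.81 on control 1 against 10.67 on control 3. Drd1, Drd2 and Gpr6, picked after their values were seen, were below background on control 3, at 8.12, 7.93 and 7.29. Of 13 enteric neuron markers, 1 was above background on control 3 and 1 on control 1, and in both cases it was Ednrb, an endothelin receptor that other cells also express. On control 1, where Tac1, Vip and Penk were above background, 1 of 15 neuron markers was, Stmn2 at 9.30. At the 99th percentile of the negative controls, no central interneuron or enteric neuron marker was above background on either array. Nor was Stmn2 on control 1. Of the striatal markers only Foxp1 then was, on both arrays. Of the excitatory markers only Slc17a7, Camk2a and Nrgn remained on control 3.

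Endocrine cells are the other source of such peptides in the gut. Of 12 enteroendocrine markers, 1 was above background on control 1 (26.0% of all probe sets were), Pyy, the peptide YY hormone of the distal gut, at 11.12. At the 99th percentile of the negative controls Pyy was not above background there. On control 3 there were 4 (20.7% of all probe sets were above background), and these included Sst and Cck, which that list shares with the precursors. The part of either cell type in the levels on control 1 was not tested.

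**Figure D4:**
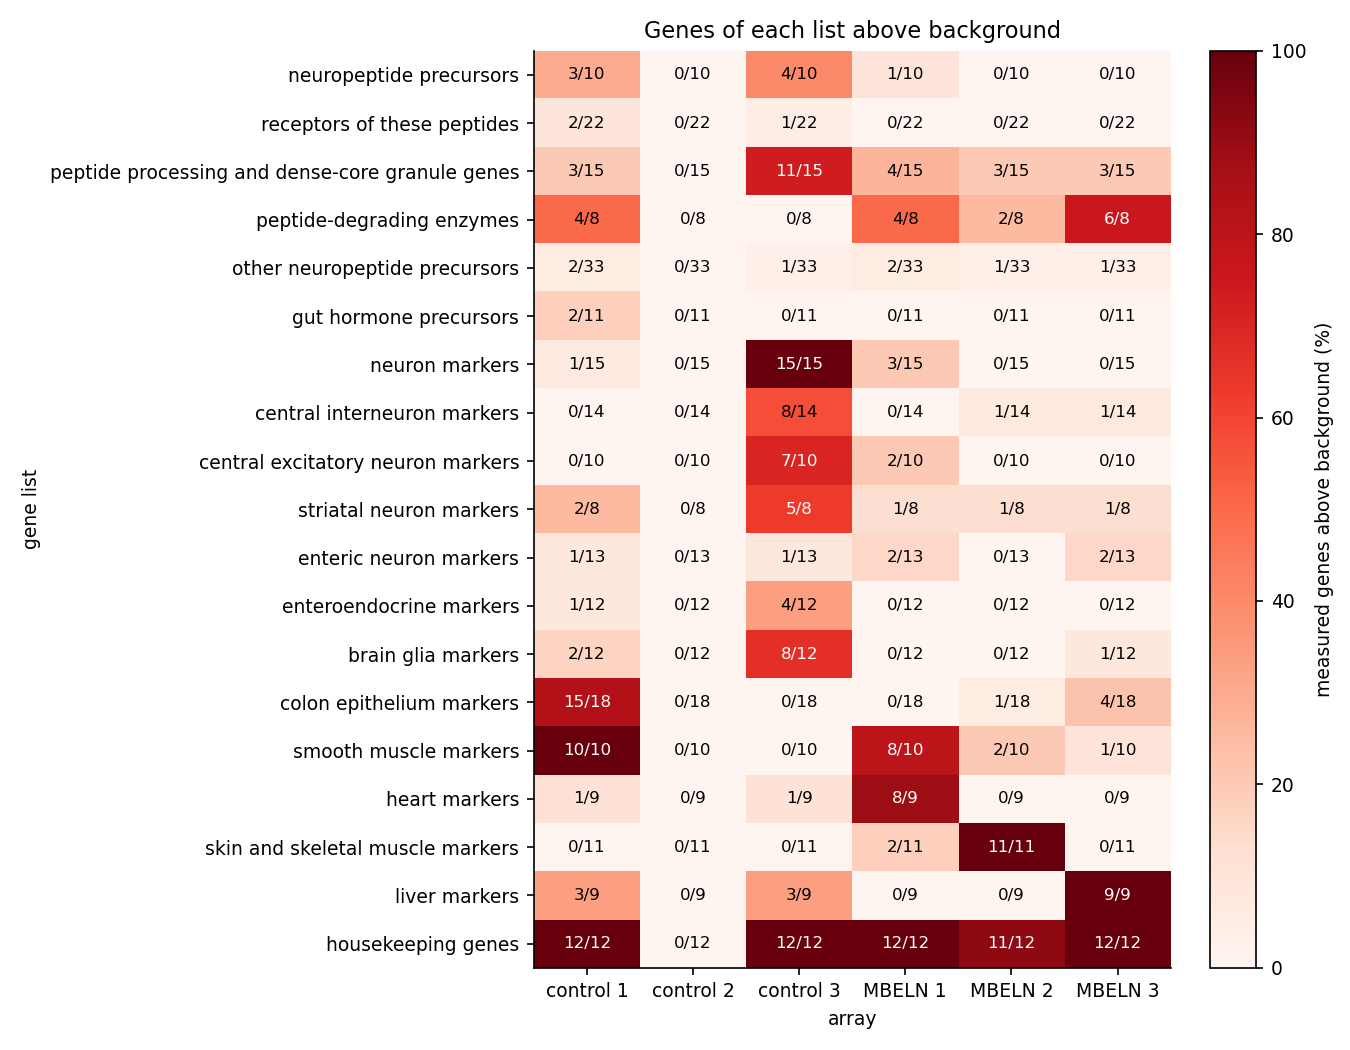
Share of each gene list above background (colour, %) on each array (columns), with the number above background over the number measured written in each cell. The row of neuropeptide precursors reads 3, 0, 4, 1, 0 and 0 of 10 from control 1 to MBELN 3, while neuron markers fill control 3 (15 of 15) and colon epithelium markers control 1 (15 of 18).

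In the comparison the labels give, MBELN against control, no precursor gene passed limma's test, as was true of all 22206 probe sets (0%, smallest adjusted p 0.936, 422 or 1.90% at an unadjusted p under 0.05). The fitted difference was below 0 for all 10 precursors, with a median of -2.23 on the log2 scale, against -0.01 over all probe sets, of which 50.4% were below 0. Setting the arrays to equal medians moved the median of all probe sets by 0.12 and left all 10 below 0. Without control 3, the array with brain genes, the median of the 10 was -0.68 with 9 below 0. Without both control 2 and control 3 it was -0.22 with 8 below 0. The genes were chosen with this contrast known, so the shared sign is a description and supports nothing.

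Tac1 had the largest fitted difference of the 10, with a mean of 10.15 ± 1.49 over the control arrays and 5.45 ± 0.45 over the MBELN arrays (SD, n = 3 each), a difference of -4.70 (SE 0.84, 95% interval -6.78 to -2.63, limma adjusted p = 0.936). It was above background on 2 of 3 control arrays and on no MBELN array. With MBELN values raised to their thresholds and control values as measured, Tac1 was 2.97-fold higher in control. Its control 2 value, 8.62, lay under the threshold of 10.11 there, so this fold is no strict lower bound. The fold also needs the 95th percentile, since at the 99th Tac1 was above background on no array. Vip was at 7.54 ± 1.93 against 4.58 ± 0.71, a fitted difference of -2.96 (SE 1.06, limma adjusted p = 0.936), and no fold is given, because its control mean lay under the mean background threshold of the MBELN arrays. Tac1 and Vip were the 2 of 10 genes at an unadjusted limma p under 0.05, both lower in MBELN, as were 0.531% of all probe sets.

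For Sst and Cck the spread within the control group was larger than the difference. Sst was 9.88 ± 5.96 (SD, n = 3) in control and 5.40 ± 0.18 in MBELN, a fitted difference of -4.48 (SE 2.86, limma adjusted p = 0.936). With MBELN values raised to their thresholds and control values as measured, Sst was 2.47-fold higher in control. Cck was 9.23 ± 5.77 against 6.29 ± 0.72, a fitted difference of -2.94 (SE 2.80), and 1.56-fold higher in control in that way. On control 1 and control 2 both genes lay under the thresholds, so neither fold is a strict lower bound. Both folds come from control 3 alone, and higher background thresholds would make them smaller. Without that array the fitted difference was -1.07 for Sst and 0.34 for Cck, which turned its direction.

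Penk varied within both groups, at 12.48 ± 4.95 (SD, n = 3) in control and 8.33 ± 4.43 in MBELN, a fitted difference of -4.15 (SE 3.18). It was -1.64 without control 3, -2.17 without MBELN 3, -6.60 without control 2 and -6.54 without MBELN 1. The intervals of Npy, Pdyn, Cartpt, Gal and Adcyap1 all included 0, with fitted differences from -1.53 (Pdyn) to -0.14 (Gal). Control and MBELN arrays did not overlap, control being higher, for 3 of 10 genes, Tac1, Sst and Vip, against 3.26% of all probe sets (6.83% in either direction), a count the choice of genes had in view. For Sst and Vip the separation rests on control 2 values that lie under that array's threshold, 5.66 and 5.47, against highest MBELN values of 5.61 and 5.02. The control 2 value of Tac1, 8.62, also lay under that threshold of 10.11, against a highest MBELN value of 5.93.

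**Figure D5:**
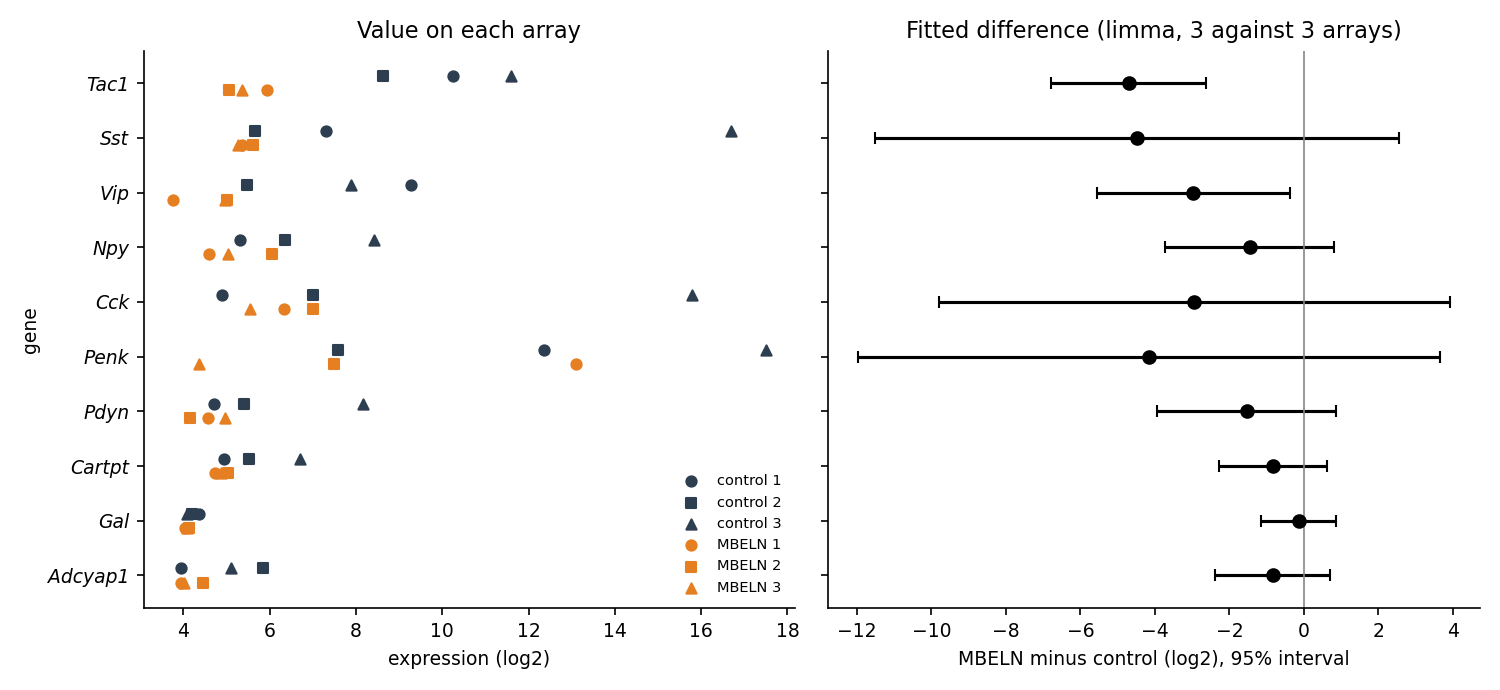
Left, expression (log2) of each precursor gene on each array, control dark and MBELN orange, with marker shape giving the replicate number. Right, the fitted difference of MBELN minus control (log2, limma, 3 against 3 arrays) with its 95% interval, which excludes 0 before adjustment only for Tac1 and Vip.

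The lists around the precursors gave no passing gene either. Over the 22 receptors, 22 fitted differences were below 0, with a median of -1.01, and over the 15 processing genes 13 were, with a median of -1.81. In each list 0 members rose and 0 fell past the adjusted threshold. The 15 neuron markers, 15 of them below 0, had a median of -3.32, and 12 of 12 brain glia markers were below 0 with a median of -2.41. Most processing genes, neuron markers and brain glia markers were above background on control 3, but only 1 of the 22 receptors was. The receptor differences thus rest mostly on values under the thresholds. The part of any of these lists in the precursors' differences was not tested.

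Genes with the most similar pattern were sought among 8538 other genes above background on at least 1 array, by the Euclidean distance of the 6 log2 values. Nearest to Sst were Gng3 (distance 1.30), Scg2 (1.33) and Syn2 (1.68), and nearest to Cck were Septin3 (1.40), Ppp2r2c (1.67) and Lrrc4c (1.93). Tac1 lay nearest to Bcas1 (1.64), Cx3cl1 (2.28) and Rab3b (2.94). The nearest to Vip were Spire2 (1.67), Hhip (1.69) and Mgat3 (1.74). Penk had no neighbour as close, with Dtna at 3.40, Gnao1 at 3.42 and Tspan3 at 3.57. With 6 arrays that carry genes of different tissues, this likeness mostly records which array was highest.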

How the data were processed

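The authors deposited log2 expression per probe set for 6 arrays, made with Transcriptome Analysis Console 4.0 per the submitters' processing notes. Per the labels' protocols, cRNA was made from 90 ng of RNA and labelled with biotin. For summarisation and normalisation the method is not given in the sources used here. The log2 scale was read from the values (3.53 to 19.93 over the probe sets tested). All sample columns were used. Control rows (6640, 5222 of them negative) were left out, which left 22206 probe sets, 19572 of them with 1 symbol in the platform annotation (19505 symbols).

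Groups were compared with limma 3.58.1 (lmFit, eBayes, 2-sided) in R 4.3.3, with Benjamini-Hochberg adjustment over 22206 probe sets and a threshold of 0.05. The fit was tested on simulated data. Where a probe set was not above background on the dimmer array or group, the higher of threshold and value was taken on each such array. Between 2 arrays this gives a bound, "at least N-fold". Between groups the brighter mean holds all its arrays as measured, also values under their thresholds, so that fold is no strict lower bound. The number of arrays limits the precision.

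The genes and lists were chosen with earlier results of these data known. Named were all 10 precursors, up to 5 genes of each related list that were above background and highest on control 3 and then on control 1, up to 3 per marker list with the highest mean, and the 3 nearest genes by pattern, leaving out predicted genes, smell and taste receptors, small RNAs and antigen receptor segments. Alternatives were quantile normalisation, equal medians, a filter at the 25th percentile, a trend with a robust prior, array weights, a replicate block, each array left out, other background percentiles and averaging the probe sets of a gene. Python 3.11.15, numpy 2.4.6 and pandas 2.3.3 were used for summaries.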

Additional observations from a re-analysis of the deposited data

How the results depend on the processing

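Of 128 values of the 10 genes for MBELN minus control under alternatives, 125 kept their direction and missed the threshold as before, and 3 turned: Cck when single arrays were left out (range -5.10 without control 1 to 0.34 without control 3), and Cck (1.40) and Adcyap1 (0.19) without both control 2 and control 3. That last setting leaves control 1 as the whole control group, assumed to vary like the other arrays. It called 14 probe sets, all lower in MBELN and none of them a precursor gene (lowest adjusted p 0.195, Tac1), against 0 in every other limma fit run, including the 6 that leave out 1 array each. With the replicate number as a block 0 were called (smallest adjusted p 0.919). The block, the trend with a robust prior and the filter leave each fitted difference unchanged, so directions under them were fixed in advance. Deviations from the group means correlated at 0.113, 0.119 and -0.051 between same-numbered arrays, and at -0.181 to 0.096 between arrays of different numbers. These correlations cannot decide whether same-numbered arrays were paired, since the arrays carried genes of different tissues. With background at the 99th percentile, 1 precursor gene (Penk) was above it on control 1 in place of 3, and 3 in place of 4 on control 3, so that Tac1 and Vip were above it on no array. Of the genes in all lists, 39 in place of 63 were then above it on control 1 and 25 in place of 77 on control 3, and on MBELN 1 to 3 these were 29, 16 and 23 in place of 49, 33 and 41. At the 90th percentile control 3 had 6 precursor genes above background. The count of 3 genes higher on control 3 than on control 1 was the same under every alternative run for it. Averaging probe sets could not change that count, since each of the 10 genes has 1 probe set.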

Other observations

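Of 33 other neuropeptide precursor genes, 2 were above background on any array. Npff, the precursor of neuropeptide FF, was at 10.27 and 10.64 on control 1 and 3 and at 11.02, 12.45 and 10.59 on MBELN 1 to 3, and under the threshold, at 9.46, on control 2. Npff was the only precursor of any list above background on each of those 5 arrays, whichever tissue's genes they carried. At the 99th percentile of the negative controls it was not above background on control 3, where Tac1 at 11.60 was not either. On control 2, where no housekeeping gene was above background, Npff at 9.46 stood over Actb at 6.37. Broad expression of Npff is thus not shown. Tarbp2, the neighbour of Npff in the RefSeq table, lay between 4.95 and 6.23 and was not above background. Adm, the precursor of adrenomedullin, a vasodilator peptide, was at 8.29 on control 1 and 8.91 on MBELN 1. Gut hormone precursors were above background on control 1 alone, with Guca2a, the guanylin precursor of colonocytes, at 14.19 and Pyy at 11.12. At the 99th percentile only Guca2a was.

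Of 8 measured enzymes that degrade peptides, control 3 had 0 above background (20.7% of all probe sets were) and control 1 had 4 (26.0%). MBELN 1 to 3 had 4, 2 and 6 (27.7%, 14.3% and 23.1% of all probe sets). Prep, prolyl endopeptidase, was at 8.69 on control 3, 9.42 on control 1 and 9.36, 9.95 and 9.94 on MBELN 1 to 3. Anpep, aminopeptidase N, was at 5.06 on control 3, 9.33 on control 1 and 10.43, 12.76 and 13.26 on MBELN 1 to 3. Ace, which also cleaves substance P, was at 6.04 on control 3, 9.27 on control 1 and 11.54, 6.25 and 5.16 on MBELN 1 to 3. Ece1, an endothelin-converting enzyme, was at 7.39 on control 3, 8.74 on control 1 and 12.27, 8.86 and 11.63 on MBELN 1 to 3. All 8 fitted differences of MBELN minus control were above 0, with a median of 1.37, and none passed limma's adjusted test. That sign was not particular to these enzymes. Of 12 housekeeping genes 0 were below 0, with a larger median of 3.43, and of all probe sets 50.4% were below 0.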
